A study of Mus musculus with 12 samples.

Results

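The smooth muscle contractile genes are 33 genes that build, anchor, activate or relax the contractile apparatus of smooth muscle. They were taken as a fixed list of symbols, and a gene was measured where a probe set of the array was annotated with exactly that symbol. All 33 were measured, among 21314 genes in all. Of them, 31 had 1 probe set, while Smtn and Kcnma1 had 2, which were averaged. The RNA came from the whole colon of 12 mice aged 6 to 8 weeks, with 1 Affymetrix array per mouse. The design crossed the wild type and Parp1-/- genotypes with plain water and 7 days of dextran sulfate sodium (DSS) at 4% in the water, and each of the 4 groups held 3 mice. Parp1 encodes a DNA-damage sensor that builds poly(ADP-ribose) on proteins, and DSS injures the colon lining and causes colitis. The colon had been washed, frozen and extracted whole, so the RNA mixed the mucosa with the muscle coats and every other cell of the wall. In such a bulk sample, fewer smooth muscle cells and less contractile RNA per cell cannot be told apart.

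In smooth muscle, calcium entering through the membrane or leaving the store binds calmodulin, which activates myosin light chain kinase. The kinase phosphorylates the regulatory light chain of myosin, the motor then pulls on actin filaments, and myosin phosphatase ends the contraction. The filaments are tied to dense bodies inside the cell and to adhesion plaques at its membrane. In the colon the contractile cells form an outer longitudinal and an inner circular coat with a thin muscle layer under the mucosa, and acetylcholine from enteric neurons drives them through muscarinic receptors. Serum response factor, helped by the coactivator myocardin, binds the CArG box in DNA and is known to drive many contractile genes.

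RefSeq promoter windows, from 250 bases before to 50 bases after the annotated start on GRCm38.p6, were found for 28 of the 33 genes. The CArG box, a 10-base motif that reads as a CArG box on both strands, occurred in the windows of 2 of the 28 genes, Myl9 and Ldb3, or 7.14%, and in 1.81% of the 27025 genes with a window. With at most 1 C or G allowed in the A/T core, it occurred in 5 of the 28, Acta2, Synm, Myl9, Ldb3 and Jph2, or 17.9%, and in 11.3% of all genes. The following stretches of 120 bases are shown because Myl9 and Acta2 were among the genes that differed most between arrays, while Ldb3 held the same motif and was the exception among the 33. Capitals mark the motif, with at most 1 C or G in its core. Myl9 is on the plus strand, and Acta2 and Ldb3 are on the minus strand.

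Myl9 chr2:156775284-156775403: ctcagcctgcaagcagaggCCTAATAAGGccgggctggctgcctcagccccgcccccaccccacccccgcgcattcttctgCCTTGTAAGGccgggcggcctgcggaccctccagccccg

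Acta2 chr19:34255374-34255493: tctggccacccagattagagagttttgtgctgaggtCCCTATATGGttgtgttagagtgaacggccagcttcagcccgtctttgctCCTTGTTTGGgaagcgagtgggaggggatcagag

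Ldb3 chr14:34588682-34588801: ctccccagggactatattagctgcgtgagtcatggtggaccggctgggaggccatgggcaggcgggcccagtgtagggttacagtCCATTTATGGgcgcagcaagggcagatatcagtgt

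Counted from the start, the Myl9 stretch ran from -180 to -61 and the other stretches from -120 to -1. A match describes letters in a window and does not show that a protein binds there.

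Values are centred log2 values in which 0 is a probe set's own median array, so they compare arrays for 1 gene and say nothing of which gene is brighter. Neither the base of the logarithm nor the sign of the scale is stated for the deposited values. Base 2, with more RNA giving a larger value, was assumed throughout. The arrays also differed in their overall spread and in housekeeping genes, and the arrays concerned were the whole wild-type water group with 1 wild-type DSS array, so these differences and that group cannot be told apart. The standard deviation over all probe sets was 0.666 to 0.871 in wild-type water 1 to 3 and wild-type DSS 1, and 0.256 to 0.394 on the other arrays. The 16 measured housekeeping genes, which nearly all cells use, averaged -1.76 to -0.94 on those 4 wild-type arrays and 0.01 to 0.43 on the others. Parp1 itself differed by -0.47 ± 0.33 (SE) between the genotypes in water (limma, adjusted p = 0.273) and by -0.52 ± 0.33 in DSS (adjusted p = 0.872). Its 6 values in Parp1-/- mice lay between -0.22 and 0.03 and its 6 values in wild-type mice between -0.41 and 1.15, so this probe gave only a weak check of the labels. Because the centring removes absolute level, whether colon or muscle markers were present on an array could not be read either.

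The contractile genes were high together on 3 arrays and not by group. Their mean over the 33 genes was 1.80 on Parp1-/- water 2, 1.71 on Parp1-/- water 3 and 1.71 on Parp1-/- DSS 1. On the other 9 arrays the mean ran from -0.54 on wild-type water 1 to 0.03 on wild-type DSS 3, with -0.33 on Parp1-/- water 1, -0.13 on Parp1-/- DSS 2 and -0.12 on Parp1-/- DSS 3. In each Parp1-/- group the mice therefore split, 2 high and 1 low in water and 1 high and 2 low in DSS. On each of the 3 high arrays 32 of the 33 genes were above 0, and Ldb3 was the exception, while 5 to 18 were above 0 on the other arrays. Values above 1 were reached by 21, 20 and 19 genes on the 3 high arrays and by at most 1 gene on any other. The labels name no batch, date or dissection that sets these 3 arrays apart.

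**Figure D1:**
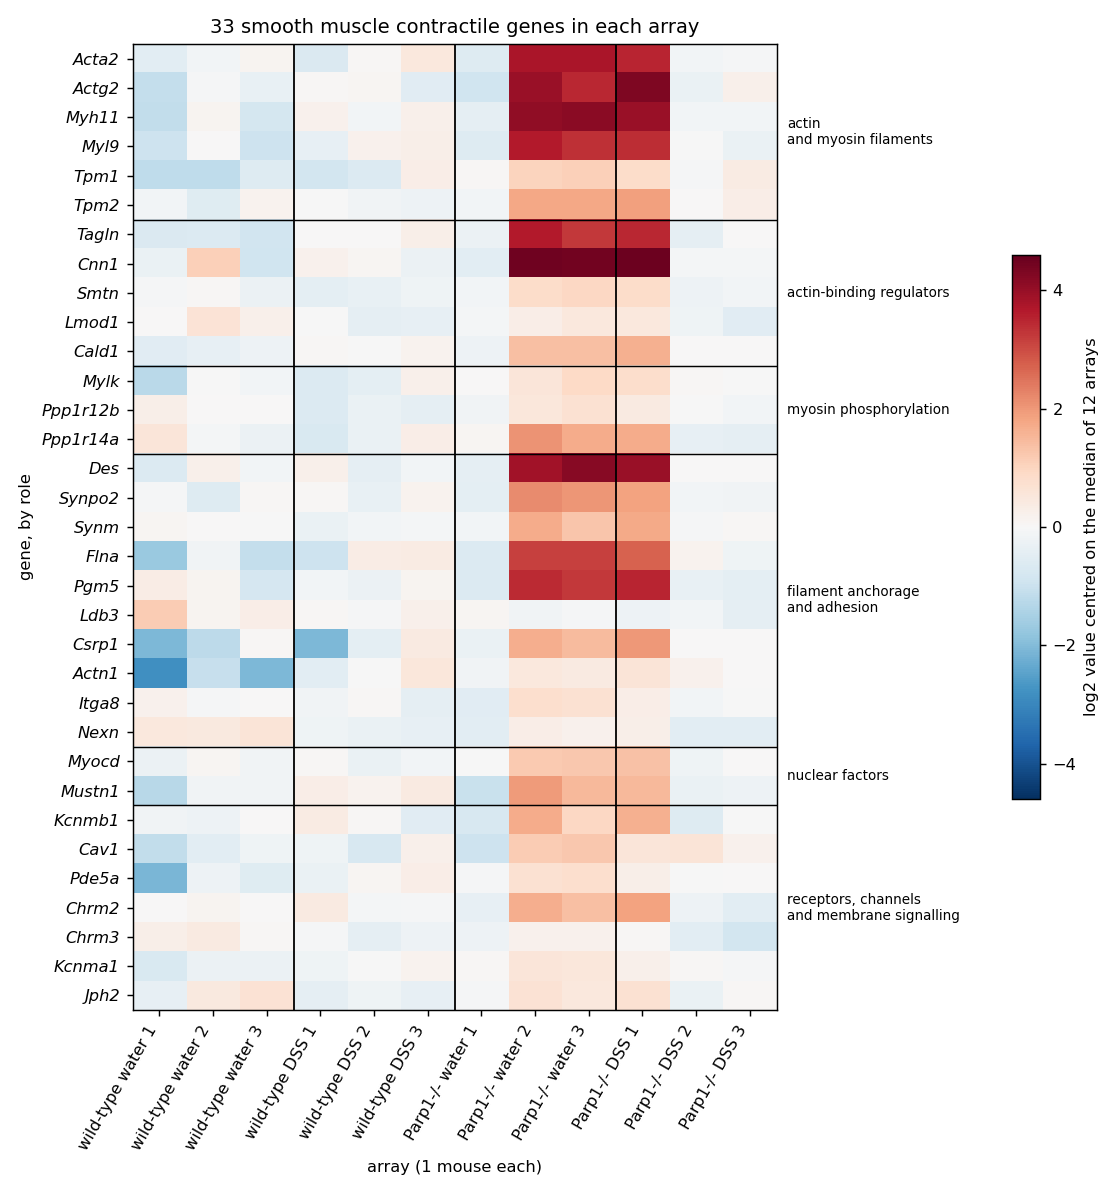
Centred log2 values of the 33 smooth muscle contractile genes (vertical axis, grouped by role) on each of the 12 arrays (horizontal axis, grouped by genotype and treatment), with colour for the value. Parp1-/- water 2, Parp1-/- water 3 and Parp1-/- DSS 1 stand out across most genes, with member means of 1.71 to 1.80, and the other arrays have means of -0.54 to 0.03.

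For 25 of the 33 genes (75.8%) those 3 arrays were the 3 highest of the 12, against 4.71% of all genes. The arrays were picked out by the members themselves, so this count describes them and tests nothing. The gap, the lowest of the 3 arrays minus the highest of the other 9, exceeded 1 in 17 of the 33 genes, against 0.192% of all genes, exceeded 2 in 9 and exceeded 3 in 7. Its median over the 33 was 1.06. Among all 21314 genes the 9 largest gaps belonged to Myh11, Des, Cnn1, Actg2, Myl9, Acta2, Tagln, Pgm5 and Flna, in that order. The 3 high arrays differed little from each other, with a median spread of 0.27 per gene and at most 0.85, for Actg2.

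This pattern depended in part on how the arrays were put on a common scale. With quantile normalization it held for 24 genes and with equal array medians for 25. With the housekeeping mean of each array subtracted it held for 13 genes, against 0.929% of all genes. On that scale the 3 arrays had member means of 1.55 to 1.58, wild-type water rose to 0.84 to 1.22 and wild-type DSS 1 to 0.73, and the other 5 arrays lay at -0.41 to -0.12.

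The filament proteins differed most between arrays. Myh11, the smooth muscle myosin heavy chain and the motor of contraction, was at most 0.24 on 9 arrays and at least 3.98 on the 3 high ones. Myh11 lay at -1.12, 0.11 and -0.82 in the wild-type water mice, 0.21, -0.14 and 0.24 in the wild-type DSS mice, -0.40, 4.09 and 4.15 in the Parp1-/- water mice and 3.98, -0.13 and -0.11 in the Parp1-/- DSS mice. No value lay between the low and the high set. Acta2 encodes the smooth muscle alpha-actin shared with blood vessels and myofibroblasts, and Actg2 the gamma-actin of visceral muscle. Acta2 lay at -0.49, -0.14 and 0.13 in the wild-type water mice, -0.65, 0.07 and 0.49 in the wild-type DSS mice, -0.61, 3.75 and 3.74 in the Parp1-/- water mice and 3.49, -0.11 and -0.07 in the Parp1-/- DSS mice. Actg2 lay at -1.10, -0.06 and -0.34 in the wild-type water mice, 0.06, 0.08 and -0.53 in the wild-type DSS mice, -0.90, 3.97 and 3.45 in the Parp1-/- water mice and 4.30, -0.32 and 0.24 in the Parp1-/- DSS mice. Both actins had the same 3 arrays highest, and Parp1-/- water 1 was among the lowest arrays for each. Myl9, the regulatory light chain that the kinase phosphorylates and whose promoter stretch is printed above, was 3.36 to 3.63 on the 3 arrays and -0.97 to 0.26 on the others. The tropomyosins, which lie along the actin filament, had smaller gaps, 1.48 for Tpm2 and 0.48 for Tpm1. Tpm1 lay at -1.18, -1.17 and -0.60 in the wild-type water mice, -0.84, -0.64 and 0.29 in the wild-type DSS mice, 0.06, 1.03 and 1.11 in the Parp1-/- water mice and 0.85, -0.06 and 0.37 in the Parp1-/- DSS mice. Tpm1 also separated the water groups, since all 3 wild-type values were below all 3 Parp1-/- values. All 6 filament genes had the 3 arrays highest, with role means of 2.93 to 3.04 there.

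Proteins that bind actin and tune its use followed. Cnn1, or calponin, which restrains the actin-activated motor, was nearly level on the 3 high arrays, with a spread of 0.07. Cnn1 lay at -0.29, 1.08 and -0.91 in the wild-type water mice, 0.21, 0.10 and -0.26 in the wild-type DSS mice, -0.49, 4.46 and 4.45 in the Parp1-/- water mice and 4.52, -0.10 and -0.10 in the Parp1-/- DSS mice. Tagln lay at -0.67, -0.63 and -0.87 in the wild-type water mice, 0.00, 0.02 and 0.26 in the wild-type DSS mice, -0.27, 3.66 and 3.27 in the Parp1-/- water mice and 3.45, -0.43 and 0.00 in the Parp1-/- DSS mice. Tagln, or transgelin, a calponin-related protein that binds actin, also had its wild-type water values below all wild-type DSS values. Cald1, or caldesmon, was 1.40 to 1.62 on the 3 arrays and at most 0.17 elsewhere. Smtn, or smoothelin, was 0.83 to 0.97 on them and at most 0.05 elsewhere, but its probe sets disagreed between the genotypes in water, at -0.23 ± 0.27 (limma, adjusted p = 0.516) and 1.54 ± 0.43 (adjusted p = 0.0224). Lmod1, or leiomodin, which starts new actin filaments, was apart from the others. It was 0.32 to 0.49 on the 3 arrays and highest, at 0.62, on wild-type water 2.

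The genes that set myosin phosphorylation all had the 3 arrays highest, at lower values. Mylk lay at -1.25, -0.03 and -0.12 in the wild-type water mice, -0.63, -0.44 and 0.23 in the wild-type DSS mice, 0.02, 0.57 and 0.92 in the Parp1-/- water mice and 0.80, 0.06 and -0.02 in the Parp1-/- DSS mice. Mylk, the myosin light chain kinase, had a gap of 0.33. Ppp1r14a lay at 0.56, -0.09 and -0.26 in the wild-type water mice, -0.70, -0.32 and 0.29 in the wild-type DSS mice, 0.09, 2.05 and 1.69 in the Parp1-/- water mice and 1.71, -0.37 and -0.43 in the Parp1-/- DSS mice. Ppp1r14a, the phosphatase inhibitor CPI-17, had the largest gap of this role, 1.13. Ppp1r12b, a regulatory subunit that targets the phosphatase to myosin, had a gap of 0.17 and was lower in wild-type DSS, at -0.64 to -0.29, than in wild-type water, at 0.02 to 0.27.

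Anchorage and adhesion genes split. Des, or desmin, the intermediate filament that links dense bodies, had a gap of 3.63. Des lay at -0.64, 0.23 and -0.14 in the wild-type water mice, 0.23, -0.40 and -0.13 in the wild-type DSS mice, -0.40, 3.86 and 4.18 in the Parp1-/- water mice and 3.96, 0.00 and 0.00 in the Parp1-/- DSS mice. Flna, or filamin A, crosslinks actin at the membrane. Flna lay at -1.70, -0.15 and -1.10 in the wild-type water mice, -0.96, 0.33 and 0.38 in the wild-type DSS mice, -0.62, 3.13 and 3.15 in the Parp1-/- water mice and 2.73, 0.15 and -0.18 in the Parp1-/- DSS mice. Parp1-/- water 1 was as low as the wild-type arrays for both genes. Pgm5, or aciculin, a protein of adhesion plaques, was 3.27 to 3.49 on the 3 arrays and at most 0.33 elsewhere. Synpo2, an actin-bundling protein of dense bodies and Z-discs, had a gap of 1.70, and Synm, or synemin, a partner of desmin, had a gap of 1.19. Csrp1, a LIM protein of the actin cytoskeleton, had a gap of 1.06 and also its lowest values, -2.08 and -2.07, on wild-type DSS 1 and wild-type water 1. Itga8, the integrin alpha 8 chain, had a gap of 0.11.

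Actn1, Ldb3 and Nexn did not have the 3 arrays highest. Actn1 lay at -2.81, -1.06 and -2.06 in the wild-type water mice, -0.47, -0.01 and 0.52 in the wild-type DSS mice, -0.16, 0.49 and 0.43 in the Parp1-/- water mice and 0.61, 0.21 and 0.01 in the Parp1-/- DSS mice. Actn1, or alpha-actinin-1, which crosslinks actin and is not restricted to muscle, was low on wild-type water 1 to 3 and close to its median or above it on most others. Ldb3 lay at 1.15, 0.14 and 0.31 in the wild-type water mice, 0.07, -0.07 and 0.22 in the wild-type DSS mice, 0.08, -0.15 and -0.07 in the Parp1-/- water mice and -0.23, -0.14 and -0.41 in the Parp1-/- DSS mice. Ldb3, a Z-disc protein better known from striated muscle, was below 0 on the 3 high arrays and highest on wild-type water 1. Nexn lay at 0.49, 0.44 and 0.60 in the wild-type water mice, -0.20, -0.30 and -0.38 in the wild-type DSS mice, -0.48, 0.32 and 0.20 in the Parp1-/- water mice and 0.28, -0.47 and -0.47 in the Parp1-/- DSS mice. Nexn, or nexilin, an actin-binding protein, was highest in wild-type water and only 0.20 to 0.32 on the 3 high arrays.

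Of the nuclear proteins, Myocd, or myocardin, the coactivator of contractile genes, had a gap of 1.12. Myocd lay at -0.27, 0.09 and -0.15 in the wild-type water mice, 0.05, -0.30 and -0.11 in the wild-type DSS mice, -0.03, 1.20 and 1.23 in the Parp1-/- water mice and 1.35, -0.19 and 0.03 in the Parp1-/- DSS mice. Its values elsewhere ran only from -0.30 to 0.09. Mustn1, a small nuclear protein of the musculoskeletal system, was 1.5 to 1.95 on those arrays and at most 0.41 elsewhere.

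Receptors, channels and membrane proteins were the most mixed role, with 3 of 7 genes having the 3 arrays highest. Chrm2 lay at 0.00, 0.14 and 0.00 in the wild-type water mice, 0.41, -0.10 and -0.06 in the wild-type DSS mice, -0.38, 1.66 and 1.39 in the Parp1-/- water mice and 1.85, -0.22 and -0.47 in the Parp1-/- DSS mice. Chrm3 lay at 0.26, 0.42 and 0.06 in the wild-type water mice, -0.05, -0.42 and -0.22 in the wild-type DSS mice, -0.23, 0.20 and 0.21 in the Parp1-/- water mice and 0.05, -0.50 and -0.84 in the Parp1-/- DSS mice. Chrm2 and Chrm3 encode the muscarinic receptors for acetylcholine in gut muscle, and only Chrm2 had a gap above 0, of 0.98. Chrm3 was highest on wild-type water 2 and lowest on Parp1-/- DSS 3. Kcnma1 and Kcnmb1 encode the pore and the accessory subunit of the large-conductance potassium channel, which damps contraction. Kcnmb1 lay at -0.16, -0.24 and 0.03 in the wild-type water mice, 0.36, 0.06 and -0.51 in the wild-type DSS mice, -0.73, 1.70 and 0.95 in the Parp1-/- water mice and 1.63, -0.61 and -0.03 in the Parp1-/- DSS mice. Kcnma1 lay at -0.71, -0.26 and -0.27 in the wild-type water mice, -0.21, -0.03 and 0.15 in the wild-type DSS mice, 0.07, 0.55 and 0.51 in the Parp1-/- water mice and 0.23, 0.04 and -0.05 in the Parp1-/- DSS mice. The Kcnma1 gap was 0.08 and rested on probe sets that disagreed, as described for the genotypes in water. Pde5a lay at -2.11, -0.22 and -0.57 in the wild-type water mice, -0.32, 0.08 and 0.32 in the wild-type DSS mice, -0.06, 0.71 and 0.78 in the Parp1-/- water mice and 0.28, -0.03 and 0.03 in the Parp1-/- DSS mice. Pde5a, which breaks down the cyclic GMP that relaxes muscle, was higher on Parp1-/- water 2 and 3 than elsewhere but not on Parp1-/- DSS 1. Jph2 lay at -0.38, 0.44 and 0.68 in the wild-type water mice, -0.40, -0.18 and -0.36 in the wild-type DSS mice, -0.06, 0.66 and 0.50 in the Parp1-/- water mice and 0.71, -0.29 and 0.06 in the Parp1-/- DSS mice. Jph2, or junctophilin-2, holds the calcium store next to the membrane, and its wild-type water 3 value lay among the 3 high arrays. Cav1, or caveolin-1, which shapes membrane caveolae, was 1.15 and 1.23 on Parp1-/- water 2 and 3, but 0.54 on Parp1-/- DSS 1 against 0.59 on Parp1-/- DSS 2.

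**Figure D2:**
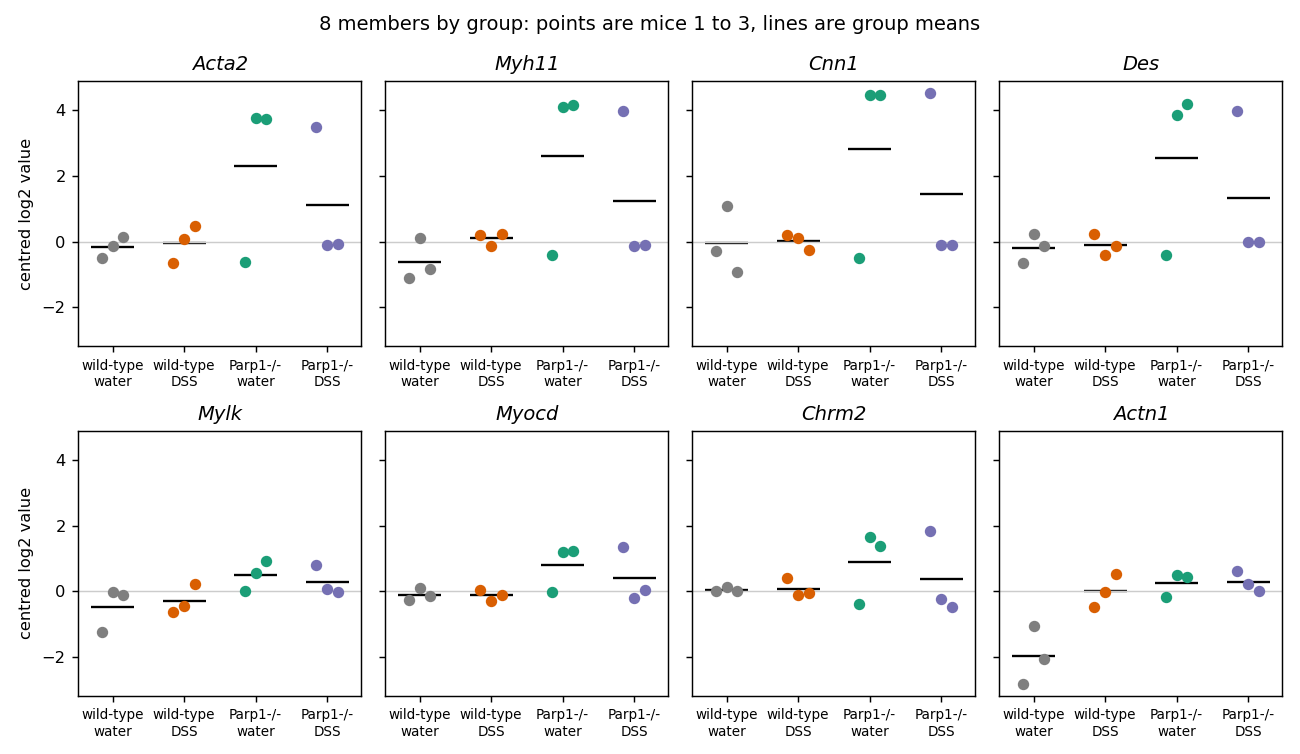
Centred log2 values (vertical axis) of 8 of the smooth muscle contractile genes in the 4 groups of 3 mice, with 1 point per mouse and a line for the group mean. Myh11 has values of -0.40, 4.09 and 4.15 in Parp1-/- water and of 3.98, -0.13 and -0.11 in Parp1-/- DSS, so its group means fall between separate points.

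The genotypes were first compared in water, without injury. Of the 33 genes, 5 rose in Parp1-/- mice at an adjusted p under 0.05, or 15.2%, against 17.9% of all genes called higher, and 0 fell, against 13.7% of all genes called lower. Actn1 was higher by 2.23 ± 0.40 (SE, 3 mice per group, limma adjusted p = 0.00305), Tpm1 by 1.71 ± 0.37 (adjusted p = 0.007) and Kcnma1 by 0.79 ± 0.19 (adjusted p = 0.0124). Pde5a was higher by 1.44 ± 0.42 (adjusted p = 0.0249) and Flna by 2.87 ± 1.0 (adjusted p = 0.0486). The share called in either direction was 15.2%, against 31.6% of all genes. At an unadjusted p under 0.05 there were 15 of the 33 genes, or 45.5%, against 46.5% of all genes, so the share at that threshold was near the background. The median difference of the 33 was 1.22, against -0.07 over all genes, and 29 were above 0, but with the housekeeping mean subtracted the median of the 33 was -0.22 and 14 were above 0.

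Myh11 and Tagln, with the largest differences of the 33, were not called, while Flna, the next, was. In Myh11, Tagln, Cnn1, Des, Acta2 and Actg2 the standard deviation among the 3 Parp1-/- mice in water ran from 2.16 to 2.86. Myh11 averaged 2.61 ± 2.61 (SD, n = 3) in Parp1-/- water and -0.61 ± 0.64 in wild-type water, a difference of 3.22 ± 1.24 (SE, limma adjusted p = 0.0659). Tagln differed by 2.94 ± 1.05 (adjusted p = 0.0523), Cnn1 by 2.85 ± 1.39 (adjusted p = 0.129) and Des by 2.73 ± 1.20 (adjusted p = 0.0972) by the same test. The actins Acta2 and Actg2 differed by 2.46 ± 1.15 (limma, adjusted p = 0.114) and 2.67 ± 1.29 (adjusted p = 0.124). Only 6 genes, Tagln, Mylk, Tpm1, Actn1, Pde5a and Kcnma1, had every Parp1-/- value above every wild-type value (18.2%, against 26.2% of all genes). Ldb3 and Nexn had every Parp1-/- value below (6.06%, against 29.2%), with differences of -0.58 ± 0.24 (limma, adjusted p = 0.0776) and -0.50 ± 0.24 (adjusted p = 0.129).

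**Figure D3:**
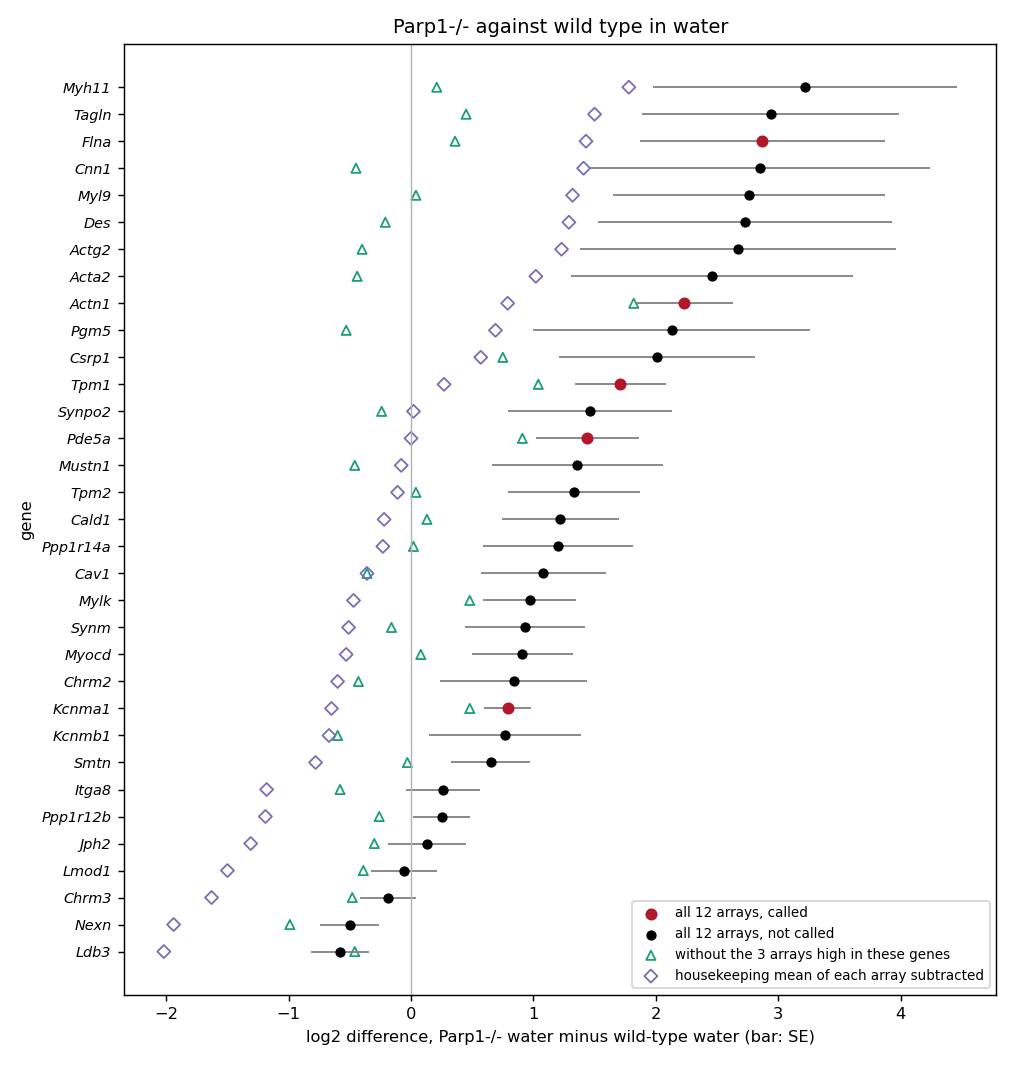
Difference in log2 value, Parp1-/- minus wild type in water, for each of the 33 smooth muscle contractile genes (vertical axis), with grey bars of 1 standard error of the limma model. Filled points are red for genes at an adjusted p under 0.05 and black for the others. Open triangles are for the fit without the 3 high arrays and open diamonds for the housekeeping mean subtracted. Actn1, Tpm1, Kcnma1, Pde5a and Flna were called, while Myh11, at 3.22 ± 1.24, was not; with the housekeeping mean subtracted Kcnma1 turned to -0.65 and the median of the 33 from 1.22 to -0.22.

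The number of calls in water changed with single arrays. Without Parp1-/- water 1, the low mouse of its group, it rose from 5 to 24 (72.7%, against 16.2% of all genes called higher), and without Parp1-/- DSS 1 it was 11 (33.3%, against 16.5%). Without Parp1-/- water 2 or without Parp1-/- water 3 it was 2, Actn1 and Tpm1 (6.06%, against 10.2% and 10.6%). Actn1 and Tpm1 stayed called in each of the 12 fits that left out 1 array, Pde5a and Kcnma1 in 10 and Flna in 4. Without all 3 high arrays, which leaves 1 Parp1-/- water mouse assumed to vary like the others, the median was -0.21 and 14 genes were above 0. Actn1 then differed by 1.82, Tpm1 by 1.04, Pde5a by 0.91, Kcnma1 by 0.48 and Flna by 0.36. The 3 arrays were picked because these same genes were high on them. A smaller difference without them was therefore built in, and this fit tests nothing.

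The scale mattered as well. Subtracting the housekeeping mean moved the median difference of all genes in water from -0.07 to -1.51 and that of the 33 contractile genes from 1.22 to -0.22. Actn1 stayed higher by 0.79 (limma, adjusted p = 0.0387), and 7 genes, Lmod1, Ldb3, Itga8, Ppp1r12b, Chrm3, Jph2 and Nexn, were then called lower, by 1.18 to 2.02 in size, or 21.2% of the 33 against 74.6% of all genes on that scale. Kcnma1 turned to -0.65 (adjusted p = 0.0741). Its probe sets differed on the deposited scale, at 1.87 ± 0.37 (limma, adjusted p = 0.00478) and -0.29 ± 0.16 (adjusted p = 0.175). The housekeeping genes moved in the same comparison, with 11 of 16 called higher in Parp1-/- water and a median difference of 1.55, and their part in the result was not tested.

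DSS in wild-type mice gave the response to injury with Parp1 present. Actn1 rose by 2.0 ± 0.40 (SE, 3 mice per group, limma adjusted p = 0.00863) and was 1 of 33 called, or 3.03%, against 8.89% of all genes called higher. None of the 33 was called lower, against 4.16% of all genes, and 4 of the 33 (12.1%) had an unadjusted p under 0.05, against 30.1% of all genes. Acta2 differed by 0.14 ± 1.15, Myh11 by 0.71 ± 1.24 and Cnn1 by 0.06 ± 1.39, with standard errors that take in the split among the Parp1-/- mice because 1 spread was fitted for all groups. Nexn differed by -0.80 ± 0.24 (adjusted p = 0.0523), with 0.44 to 0.60 in water and -0.38 to -0.20 in DSS. The wild-type groups did not overlap for 10 genes. Tagln, Cald1, Actn1, Mustn1 and Kcnma1 were wholly higher in DSS (15.2%, against 11.4% of all genes), and Lmod1, Synm, Ppp1r12b, Chrm3 and Nexn wholly lower (15.2%, against 12.2%).

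The wild-type calls also depended on the scale and the arrays fitted. Actn1 was not called with quantile normalization (1.07, limma adjusted p = 0.107) or when only the 6 wild-type arrays were fitted (adjusted p = 0.0669). Nexn joined it without wild-type DSS 1, without Parp1-/- water 1, without Parp1-/- DSS 1 or without the 3 high arrays, which made 2 called genes. With the housekeeping mean subtracted, 14 genes were called, Actn1 higher by 0.86 and 13 lower (39.4%, against 69.4% of all genes called lower on that scale). The median of the 33 was then -1.04 against -1.19 over all genes, while on the deposited scale these medians were 0.10 and -0.05. Housekeeping genes were called higher in 8 of 16 cases in this comparison, and their part in it was not tested.

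DSS in Parp1-/- mice gave 0 called genes of 33, against 0.00938% of all genes called higher and 0% lower, and 0 of 33 at an unadjusted p under 0.05, against 2.86% of all genes (limma). The median difference was -0.41 and 32 of the 33 differences were below 0, but no gene had groups that did not overlap, against 7.82% of all genes wholly higher and 4.7% wholly lower in DSS. Myh11 differed by -1.37 ± 1.24 (SE), Des by -1.23 ± 1.20 and Acta2 by -1.19 ± 1.15. Without the 3 high arrays, which were picked by these same genes, the median was 0.23 and 25 genes were above 0, which again tests nothing. With arrays weighted by their agreement with the model, Ppp1r14a, Chrm3 and Kcnma1 were called lower (9.09%, against 4.64% of all genes).

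The genotypes in DSS gave 0 called genes of 33, against 0% of all genes, and 1 of 33 (3.03%) at an unadjusted p under 0.05, against 2.78% of all genes (limma). That gene was Ppp1r12b, higher by 0.54 ± 0.23 in Parp1-/- (SE, limma adjusted p = 0.872). Actg2 differed by 1.54 ± 1.29, Cnn1 by 1.43 ± 1.39 and Des by 1.42 ± 1.20, and 31 of the 33 differences were above 0, with a median of 0.54. Synm, Tpm2 and Ppp1r12b had every Parp1-/- value above every wild-type value (9.09%, against 2.04% of all genes), and Ldb3 every value below (3.03%, against 4.52%). Without the 3 high arrays, which were picked by these same genes, the median was -0.03, which again tests nothing.

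The difference of the DSS responses, Parp1-/- minus wild type, was not called for any of the 33 genes, against 0.216% of all genes called higher, 2.33% called lower and 2.54% in either direction. By limma 3 of 33 (9.09%) had an unadjusted p under 0.05, against 17.5% of all genes. Actn1 responded by 0.02 ± 0.40 in Parp1-/- mice and by 2.0 ± 0.40 in wild-type mice, a difference of -1.97 ± 0.57 (limma, adjusted p = 0.102). That difference was called without wild-type water 2 (-2.43, adjusted p = 0.0262) or without wild-type DSS 1 (-2.21, adjusted p = 0.0296). Pde5a differed by -1.37 ± 0.59 (adjusted p = 0.26) and Kcnma1 by -0.69 ± 0.27 (adjusted p = 0.223). Wild-type water enters this difference, the DSS response in wild type and the genotype difference in water, so these are not separate evidence. With the housekeeping mean subtracted, Ppp1r12b, Jph2 and Nexn were called higher (9.09%, against 30.6% of all genes), and the median of the 33 turned from -0.66 to 0.57, against 1.28 over all genes.

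Other genes of the contractile pathway were read from 6 lists, of which 136 of 159 genes were measured. In 48 of the 136 (35.3%) the same 3 arrays were the highest, against 4.71% of all genes. In 5 of these lists this held for 15 of 36 partners of actin filaments and dense bodies, 11 of 22 genes of the dystrophin complex and matrix anchorage, 8 of 22 for calcium and membrane potential, 4 of 21 agonist receptors and G proteins, and 2 of 16 regulators. With the housekeeping mean subtracted these counts were 4, 2, 3, 0 and 0 in the same order, against 0.929% of all genes on that scale. Pdlim3, a PDZ and LIM domain protein of Z-discs, and Atp2b4, a plasma membrane calcium pump, had the largest gaps after the 9 contractile genes, 2.22 and 2.08, and are named after their values were seen. Pdlim3 lay at -0.08, 0.74 and -0.02 in the wild-type water mice, -0.33, 0.02 and 0.27 in the wild-type DSS mice, -0.48, 3.50 and 3.47 in the Parp1-/- water mice and 2.96, -0.14 and -0.74 in the Parp1-/- DSS mice. Atp2b4 lay at -0.42, -1.38 and -0.51 in the wild-type water mice, -0.04, 0.19 and 0.04 in the wild-type DSS mice, -0.79, 2.80 and 2.67 in the Parp1-/- water mice and 2.28, 0.08 and -0.10 in the Parp1-/- DSS mice. Neither had a value above 0.74 outside the 3 arrays. Srf, the factor that binds the CArG box, was 0.05 to 0.16 on the 3 high arrays and -0.90 to 0.14 on the others.

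In water, 33 of the 136 pathway genes were called higher in Parp1-/- mice and 4 lower, against 17.9% and 13.7% of all genes, with a median difference of 0.61, but with the housekeeping mean subtracted 5 were called higher and 63 lower, with a median of -0.83. All genes moved on that scale, with 2.28% called higher and 74.6% lower. Without the 3 high arrays, which leaves 1 Parp1-/- water mouse, the median of the 136 was 0.05 and 74 were above 0. The 33 genes called higher on all arrays were then all above 0, with a median of 1.14 against 1.43 before. Those 33 had been picked as higher in this same comparison, with the same wild-type water arrays, so this describes them and tests nothing. The genes of smallest p were mostly low on all 3 wild-type water arrays rather than high on the 3 arrays above. In the same comparison 12 of 16 colon epithelial markers were called higher, against 17.9% of all genes, with a median difference of 1.61. The part of epithelial cells in the pathway genes was not tested. Gata6, a regulator of the differentiated state, was higher by 2.29 ± 0.23 (limma, adjusted p = 0.000151) and Klf5, linked to the growing state, by 1.52 ± 0.28 (adjusted p = 0.00334). Vcl, or vinculin, was higher by 2.32 ± 0.32 (adjusted p = 0.000756), the integrin chain Itgb1 by 2.45 ± 0.39 (adjusted p = 0.00157) and the calcium store pump Atp2a2 by 2.88 ± 0.45 (adjusted p = 0.00151). Prkca, the kinase that activates CPI-17, was higher by 2.24 ± 0.32 (limma, adjusted p = 0.000876), Rock1, which inhibits the phosphatase, by 2.01 ± 0.34 (adjusted p = 0.00238) and Gnaq, the G protein of contractile receptors, by 1.73 ± 0.31 (adjusted p = 0.00297). Oxtr, the oxytocin receptor, differed by -0.69 ± 0.18 (limma, adjusted p = 0.015). With the housekeeping mean subtracted, 16 of the 33 pathway genes called higher stayed above 0 and 17 lay below it, 1 of them called lower. Of those above, 5 stayed called, among them Gata6, Vcl, Itgb1 and Atp2a2 at 0.85 to 1.44, while Klf5 was at 0.08 and Gnaq at 0.29. In DSS-treated wild-type mice 18 of the 136 were called higher and 4 lower, against 8.89% and 4.16% of all genes, and with the housekeeping mean subtracted 3 were higher and 70 lower, where 1.98% and 69.4% of all genes were. DSS in Parp1-/- mice and the genotypes in DSS gave 0 called, against 0.00938% and 0% of all genes. At an unadjusted p under 0.05 (limma) they gave 2 and 8 of 136, against 2.86% and 2.78% of all genes. In the difference of responses 0 were called higher and 2 lower, among them Gata6, against 0.216% and 2.33% of all genes. For that difference the housekeeping scale gave 18 higher and 0 lower, against 30.6% and 0.263% of all genes.

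Markers of other cells moved with the contractile genes to different degrees on the deposited scale. The 14 skeletal muscle markers averaged -0.12, -0.11 and -0.02 on Parp1-/- water 2, Parp1-/- water 3 and Parp1-/- DSS 1, and -0.13 to 0.43 elsewhere. None had these 3 arrays highest, which for a list of 14 genes is near the background of 4.71% of all genes. Fibroblast markers averaged 1.47, 1.35 and 0.73 on them and -0.97 to 0.44 elsewhere, with 6 of 11 highest there, among them Col1a1 and Dcn. The rest of that list did not have them highest, among them Pi16, at -0.04, -0.16 and 0.09. Enteric neuron markers averaged 0.67, 0.47 and 0.94, against -0.35 to 0.13 elsewhere, with 7 of 15 highest there, among them the peptides Vip and Gal. Other neuron markers did not have them highest. Chat was at -0.37, -0.25 and 0.06 on them and Elavl3 at -0.28, -0.22 and 0.33, while Tac1 was highest on Parp1-/- DSS 3, at 2.29. Vascular mural markers averaged 0.82, 0.59 and 0.53, against -0.24 to 0.11 elsewhere, with 3 of 11 highest there, Rgs5, Abcc9 and Mcam. Rgs5, which marks pericytes, was 2.64 to 2.76 on the 3 arrays and at most 0.95 elsewhere, and had the largest gap of this list. Mural markers other than Rgs5, Abcc9 and Mcam did not have these arrays highest. Among them, Ndufa4l2 was -0.68 to -0.10 on the 3 arrays and Higd1b -0.14 to -0.01.

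Endothelial markers averaged 0.90, 0.62 and 0.45, against -0.29 to 0.53 elsewhere, with 2 of 14 highest there. Markers of the interstitial cells of Cajal, the pacemakers of gut muscle, averaged 0.39, 0.27 and 0.56, which lay within or just above the range elsewhere of -0.81 to 0.51. Colon epithelial markers averaged 0.09, 0.10 and 0.26, against -1.53 to 0.33 elsewhere, and immune markers -0.17, -0.38 and 0.15, against -0.75 to 0.65. The epithelial means were lowest on wild-type water 1 to 3, at -1.53, -1.19 and -1.24, and wild-type DSS 1, at -0.98. Of the 16 epithelial markers, 12 were called higher in Parp1-/- than in wild-type water (limma), against 17.9% of all genes. In wild-type mice 9 of 16 were called higher with DSS, against 8.89% of all genes. Glial, mesothelial, adipocyte and immune lists, of 8, 7, 9 and 14 genes, had 0 genes with the 3 arrays highest. With a share of 4.71% over all genes, 0 in lists this short is near the background. The epithelial list had 2 of 16 and the Cajal list 1 of 8. With the housekeeping mean subtracted, the highest of the other 9 arrays was at 0.78 for fibroblast markers, against 0.60 to 1.25 on the 3 arrays, at 1.55 for neuron markers, against 0.31 to 0.80, and at 1.66 for mural markers, against 0.39 to 0.60. The part that any of these cells plays in the values of the contractile genes was not tested.

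**Figure D4:**
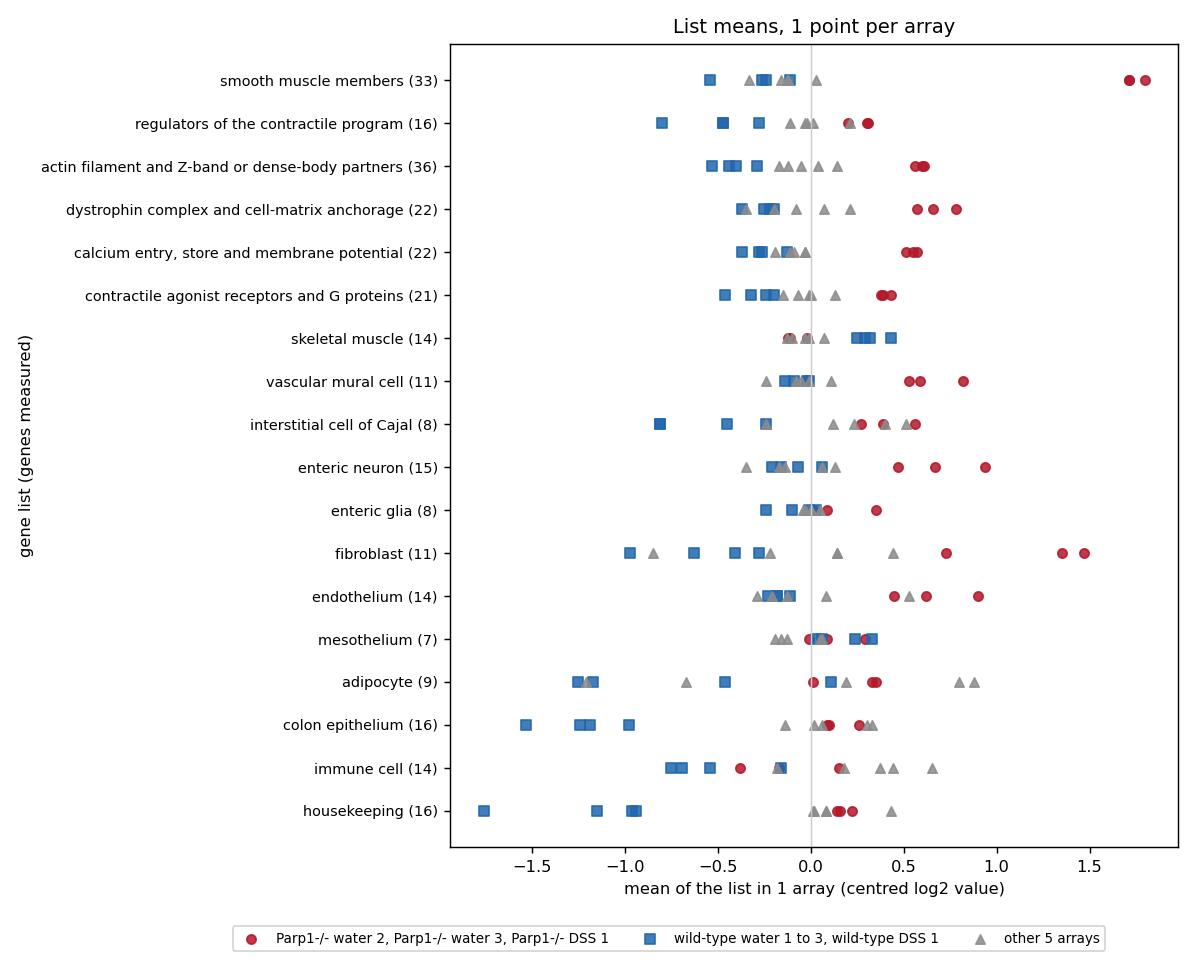
Mean centred log2 value of the contractile genes, 5 pathway lists and 12 marker lists (vertical axis, with the number of genes measured) on each array, 1 point per array, with red circles for Parp1-/- water 2, Parp1-/- water 3 and Parp1-/- DSS 1, blue squares for wild-type water 1 to 3 and wild-type DSS 1, and grey triangles for the other 5 arrays. The contractile genes have red points at 1.71 to 1.80 and no other point above 0.03, while in the housekeeping list the blue squares stand apart at -1.76 to -0.94.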

How the data were processed

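Biotin-labelled colon RNA of 12 mice was run on 12 Affymetrix arrays, per the labels' protocols, which name no slide, batch or date. The deposited table held 31693 probe sets from -4.83 to 5.47, which the authors gave on a log scale, taken here as log2. Each probe set's median was 0 to within 5e-07, so values were centred per probe set. For background correction, normalization, log base and direction the sources used here give nothing. The medians of the arrays, in mouse order, were -0.00315, -0.0310 and -0.0438 for Parp1-/- water, 0.000797, -0.0204 and -0.00781 for Parp1-/- DSS, 0.0576, 0.0999 and 0.0946 for wild-type water, and 0.0784, 0.000299 and -0.00104 for wild-type DSS. No pair of arrays held identical values. Signal over background is unknown, so no filter on dim probe sets was applied, and the number of arrays limits the precision.

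Names came from the platform's annotation: 22586 probe sets had 1 gene symbol, 1756 several and 7351 none. Probe sets of 1 symbol were averaged per gene. The 3 probe sets with several symbols that include a contractile gene were not used. The genotype and treatment labels set the groups, mice were separate animals, and replicate numbers follow accession order and only name mice. One limma 3.58.1 model in R 4.3.3 (lmFit, eBayes) fitted the 4 groups over 12 arrays, with Benjamini-Hochberg adjustment over 21314 genes and a call at an adjusted p under 0.05; it was tested on simulated data. Errors of differences are standard errors of the model. The alternatives were quantile normalization, equal array medians, subtraction of the housekeeping mean, single probe sets, trend and robust eBayes, array weights, only the arrays compared, an adjusted p under 0.01, leaving out each array, the 3 high arrays together, and wild-type water 1 with wild-type DSS 1.

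The 33 genes, the pathway and marker lists and the alternatives were chosen with earlier results of these data known. Values on every array are given for the first genes of each role and for members called where fewer than 6 were called, and pathway genes by the smallest p of a list; the separate counts of 1 pathway list are not reported here. The CArG box was searched in RefSeq promoter windows of GRCm38.p6. Python 3.11.15 with pandas 2.3.3 handled the tables and matplotlib 3.10.9 drew the figures.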

Additional observations from a re-analysis of the deposited data

How the results depend on the processing

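No paired analysis was possible because the labels give no replicate numbers that groups share. For the genotypes in water 5 of 33 were called by limma on the deposited scale, all higher (15.2%, against 17.9% of all genes). With quantile normalization 2 were higher (6.06%, against 7.3%), and with array weights 14 (42.4%, against 23.1%). At an adjusted p under 0.01 there were 2 higher (6.06%, against 8.65%). With the housekeeping mean subtracted 1 was higher (3.03%, against 2.28%) and 7 lower (21.2%, against 74.6%). The count was 2 to 24 when 1 array was left out, with the shares for these extremes given above. For DSS in wild type 1 was called, higher. With quantile normalization 0 were called, against 0.924% of all genes higher and 0.0469% lower. With only the wild-type arrays 0 were called, against 2.91% and 0.0938%. With trend and robust eBayes 1 was higher (3.03%, against 7.65%) and 1 lower (3.03%, against 4.57%). With the housekeeping mean subtracted 1 was higher (3.03%, against 1.98%) and 13 lower (39.4%, against 69.4%). The count was 1 to 2 when 1 array was left out. For DSS in Parp1-/- mice 3 were called lower with array weights (9.09%, against 4.64% of all genes) and 0 otherwise. In the difference of responses, subtracting the housekeeping mean gave 3 genes higher, Ppp1r12b, Jph2 and Nexn (9.09%, against 30.6% of all genes). Array weights instead gave 3 different genes lower, Actn1, Pde5a and Kcnma1 (9.09%, against 14.7%). With both wild-type DSS 1 and wild-type water 1 left out 1 was lower (3.03%, against 11.9%). The count was 0 to 1 when 1 array was left out. The genotypes in DSS gave 0 in all 22 alternatives. The 3 arrays were highest for 13 genes, in place of 25, with the housekeeping mean subtracted. Kcnma1 in water turned from 0.79 to -0.65 with that subtraction. Actn1 in water was called in 21 of 22 alternatives, Tpm1 in 20, Kcnma1 in 16, Pde5a in 15 and Flna in 8. The causes of these shifts were not tested. Signal over background, which would limit dim genes, is unknown.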
